A study of Mus musculus with 15 samples.

Results

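Genes of B cell development were followed through 15 RNA sequencing libraries of mouse tibial subchondral bone, the bone under the joint cartilage with the marrow held in its spaces. The set holds 32 genes, picked by gene symbol from 55335 gene IDs, and each symbol was found at 1 row of the deposited expression table. They were ordered by stage into 7 genes of pro-B and pre-B cells (Dntt, Rag1, Rag2, Vpreb1, Igll1, Vpreb3 and Il7r), 14 genes used through the lineage (Ebf1, Pax5, Cd79a, Cd79b, Blnk, Btk, Blk, Cd72, Cd24a, Fcrla, Spib, Pou2af1, Bach2 and Ikzf3) and 11 genes of mature B cells (Ms4a1, Cr2, Fcer2a, Cxcr5, Tnfrsf13c, Bank1, Fcrl1, Cd22, Siglecg, Cd37 and Ralgps2). The questions were whether pro-B and pre-B genes and mature B cell genes moved apart in any library, and whether either class differed between the operated and mutant groups.

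The 3 groups held 5 male mice each. The DMM cKO group carried Dmp1-Cre;Pvalb fl/fl, which deletes the parvalbumin gene where the Dmp1 promoter drives Cre, chiefly in osteocytes, and had destabilization of the medial meniscus (DMM), a cut through a ligament that anchors the meniscus and brings on osteoarthritis. The DMM WT group was C57BL/6J wild type with the same operation. The sham WT group was C57BL/6J wild type with the joint capsule opened and the ligament spared. All mice had surgery at 8 weeks of age and gave bone 8 weeks later. Knockout bone after sham surgery was not analysed here, so genotype is compared after DMM alone. The Cre driver is not aimed at B cells, and the labels do not say whether marrow was flushed out. Values are FPKM, fragment counts scaled by transcript length and library total, so levels can be set side by side between genes. Lists of 5 values run from replicate 1 to replicate 5, and errors are SD over n = 5 bones.

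B cells arise in the bone marrow. Pro-B cells cut and join their immunoglobulin heavy chain genes with the RAG recombinase, and pre-B cells test the new chain by pairing it with a surrogate light chain while stromal interleukin signals let them divide. Cells that pass leave for the spleen, and mature B cells that return to the marrow carry CD20, CD21, CD23 and the receptors for BAFF and for the chemokine Cxcl13.

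The promoters of 4 genes are shown because these genes stand for the stages that the results compare: both surrogate light chain genes, a receptor subunit kept through the lineage and a complement receptor of mature B cells. The sequences are RefSeq windows of build GRCm38.p6, from 250 bases before to 50 bases after the transcript start, on the strand of the gene. Capitals mark matches on either strand to CAGGTG, an E-box bound by E2A proteins, to GAGGAA, a core bound by Ets factors such as PU.1, and to CCCNNGGG, a core of the EBF1 site. No capital run belongs to more than 1 motif.
Vpreb1, chr16:16869206-16869505, minus strand: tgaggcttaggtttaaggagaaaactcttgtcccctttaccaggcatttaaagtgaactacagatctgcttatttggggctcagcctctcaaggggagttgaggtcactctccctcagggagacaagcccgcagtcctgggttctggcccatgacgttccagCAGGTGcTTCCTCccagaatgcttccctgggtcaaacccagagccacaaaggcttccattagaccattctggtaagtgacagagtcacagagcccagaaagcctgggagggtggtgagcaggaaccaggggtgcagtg
Igll1, chr16:16863936-16864235, minus strand: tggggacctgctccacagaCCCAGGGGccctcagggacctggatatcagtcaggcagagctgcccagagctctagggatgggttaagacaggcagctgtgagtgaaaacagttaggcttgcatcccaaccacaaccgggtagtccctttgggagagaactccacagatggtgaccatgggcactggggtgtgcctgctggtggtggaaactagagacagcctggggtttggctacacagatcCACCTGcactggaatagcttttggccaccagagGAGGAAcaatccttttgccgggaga
Cd79a, chr7:24897247-24897546, plus strand: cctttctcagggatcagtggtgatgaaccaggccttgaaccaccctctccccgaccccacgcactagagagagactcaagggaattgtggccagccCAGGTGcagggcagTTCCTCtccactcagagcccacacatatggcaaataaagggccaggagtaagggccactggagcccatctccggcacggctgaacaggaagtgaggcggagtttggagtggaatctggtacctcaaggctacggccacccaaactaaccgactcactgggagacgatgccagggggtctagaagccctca
Cr2, chr1:195176670-195176969, minus strand: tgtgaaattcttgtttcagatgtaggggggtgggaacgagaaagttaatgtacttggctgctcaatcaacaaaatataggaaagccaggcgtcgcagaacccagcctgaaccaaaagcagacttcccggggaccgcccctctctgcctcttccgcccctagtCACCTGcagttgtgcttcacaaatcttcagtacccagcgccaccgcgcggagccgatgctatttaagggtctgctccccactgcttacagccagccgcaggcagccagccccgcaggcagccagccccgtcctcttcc
The E-box lay at -88 from the start of Vpreb1, -8 of Igll1, -154 of Cd79a and -88 of Cr2. RefSeq windows were matched for 26 of the 32 genes, as 31 windows, and not for Cd79b, Blk, Cd24a, Ikzf3, Ms4a1 and Cxcr5. The E-box was in 14 of the 31 windows (45.2%), against 20.2% of all 32851 promoter windows. By stage it was found at 3 of 7 pro-B and pre-B genes, 3 of 10 lineage-wide genes and 7 of 9 mature genes. The Ets core was in 38.7% of the members' windows and 28.3% of all windows, and the EBF core in 12.9% and 13.7%. The octamer ATTTGCAT, a site for Oct factors, was in 6.45% of the members' windows (Vpreb3 and Blnk) and 1.74% of all windows. These matches describe letters in a window and were not tied to any change below.

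The tissue was bone by its markers: the summed level of 10 osteoblast and osteocyte genes was 1707 to 3146 FPKM in DMM cKO, 2523 to 4159 FPKM in DMM WT and 1834 to 3377 FPKM in sham WT bones. Pvalb, the targeted gene, was read at 23.7 to 166 FPKM in DMM cKO, 33.0 to 375 FPKM in DMM WT and 15.8 to 490 FPKM in sham WT bones, and so did not separate the groups. Total FPKM was 375453 to 468423 per library. Read counts were not in the table and absolute depth is unknown; steps among the low values place the libraries within a 1.66-fold range of relative depth.

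Several libraries stood apart before any comparison. In DMM cKO replicate 1, 29 of the 32 B cell genes were below all 4 other DMM cKO bones, against 24.4% of the 13621 other genes tested, and neutrophil genes were higher (values below). In DMM WT replicate 3, 20 of the 32 were below the other 4 DMM WT bones, against 43.8% of other genes. These libraries and DMM cKO replicate 4 also read longer transcripts lower over genes outside the set. The slope of log2(FPKM + 1) on log2 length was -0.14 in DMM cKO replicate 1, -0.19 in DMM cKO replicate 4 and -0.22 in DMM WT replicate 3, and between -0.03 and 0.12 in the other libraries. Sham WT bones varied too: in sham WT replicate 4, 26 of the 32 members were above the other 4 sham WT bones, against 28.4% of other genes, and in sham WT replicate 5, 21 were below them, against 22.1%. The main differences are given with and without DMM cKO replicate 1 or the 3 libraries with a length slope, and leaving out each other library in turn is summarised in the closing section.

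**Figure D1:**
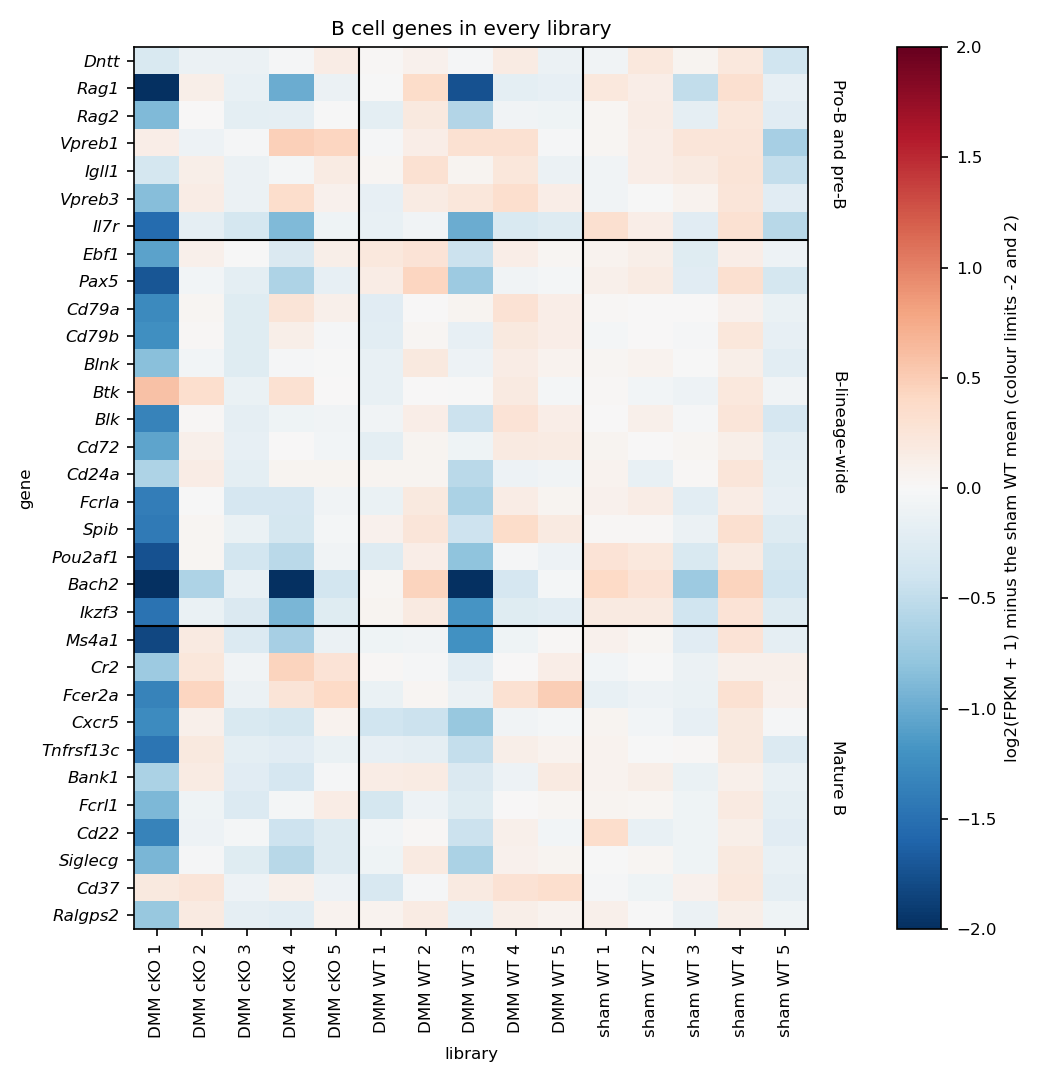
Each cell is 1 of the 32 B cell genes (rows, by stage) in 1 of the 15 libraries (columns), coloured by log2(FPKM + 1) minus the sham WT mean, with colours held between -2 and 2. DMM cKO replicate 1 is blue for nearly every gene, while DMM cKO replicate 4 and DMM WT replicate 3 are darkest at Rag1 and Bach2.

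Pro-B and pre-B genes were read in all 3 groups and none passed the test in any comparison. The surrogate light chain genes were near 10 FPKM, and Vpreb3 was the most abundant of the class. Vpreb1, which encodes the variable-like part of the surrogate light chain, was 10.8, 9.11, 9.69, 14.02 and 13.5 FPKM in DMM cKO bones, 9.65, 10.9, 12.4, 12.4 and 9.65 FPKM in DMM WT bones and 10.1, 10.8, 11.9, 11.8 and 5.81 FPKM in sham WT bones. Sham WT replicate 5 was the low one, and the groups overlapped. The Vpreb1 level is uncertain because its transcript is 97.4% identical to that of Vpreb2 over 99.1% of its length; Vpreb2 averaged 2.18 FPKM. Igll1, the lambda-5 part that pairs with it, was 6.59, 9.49, 7.94, 8.41 and 9.91 FPKM in DMM cKO bones, 8.93, 10.9, 9.13, 10.4 and 7.94 FPKM in DMM WT bones and 8.21, 9.60, 9.99, 10.6 and 5.94 FPKM in sham WT bones. DMM cKO replicate 1 and sham WT replicate 5 were the lowest, and all 3 ranges overlapped.

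The recombination genes behaved unlike the surrogate light chain in some libraries. Rag1, the catalytic subunit of the recombinase, was 1.04, 7.83, 6.31, 3.09 and 6.46 FPKM in DMM cKO bones, 7.06, 9.40, 1.43, 6.05 and 6.25 FPKM in DMM WT bones and 8.40, 7.85, 4.76, 9.07 and 6.23 FPKM in sham WT bones. It was near 1 FPKM in DMM cKO replicate 1 and DMM WT replicate 3 and reached 9 FPKM elsewhere, a 9.02-fold range over all libraries. Dntt, the transferase that adds bases at the joins, was 7.65, 8.87, 8.88, 9.49 and 10.9 FPKM in DMM cKO bones, 9.84, 10.4, 9.55, 10.9 and 8.85 FPKM in DMM WT bones and 9.18, 11.3, 10.1, 11.4 and 7.07 FPKM in sham WT bones. Dntt varied least of the class, 1.61-fold in all; DMM cKO replicate 1 was the lowest of its group and DMM WT replicate 3 lay inside its own. The ratio of Rag1 to Vpreb1 was 0.0962 in DMM cKO replicate 1, 0.220 in DMM cKO replicate 4 and 0.116 in DMM WT replicate 3, and from 0.402 to 1.07 in the other 12 libraries. The Rag1 transcript has 6608 bases and the Vpreb1 transcript 766 bases.

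Rag2, the partner of Rag1, averaged 1.81 ± 0.617 FPKM in DMM cKO, 1.99 ± 0.555 FPKM in DMM WT and 2.30 ± 0.450 FPKM in sham WT bones. Vpreb3, a VpreB-related protein of B cell precursors, averaged 42.5 ± 12.0 FPKM in DMM cKO, 47.9 ± 6.00 FPKM in DMM WT and 43.4 ± 5.24 FPKM in sham WT bones. Both were lowest in DMM cKO replicate 1. Il7r, the alpha chain of the interleukin-7 receptor, which T cells also carry, was 1.76, 6.09, 5.27, 3.34 and 6.58 FPKM in DMM cKO bones, 6.23, 6.64, 3.03, 5.45 and 5.70 FPKM in DMM WT bones and 9.04, 7.83, 5.84, 8.94 and 4.48 FPKM in sham WT bones. Every DMM cKO and every DMM WT bone was below the sham WT mean of 7.22 FPKM, but sham WT replicates 3 and 5 lay among the operated bones, so the ranges overlapped.

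**Figure D2:**
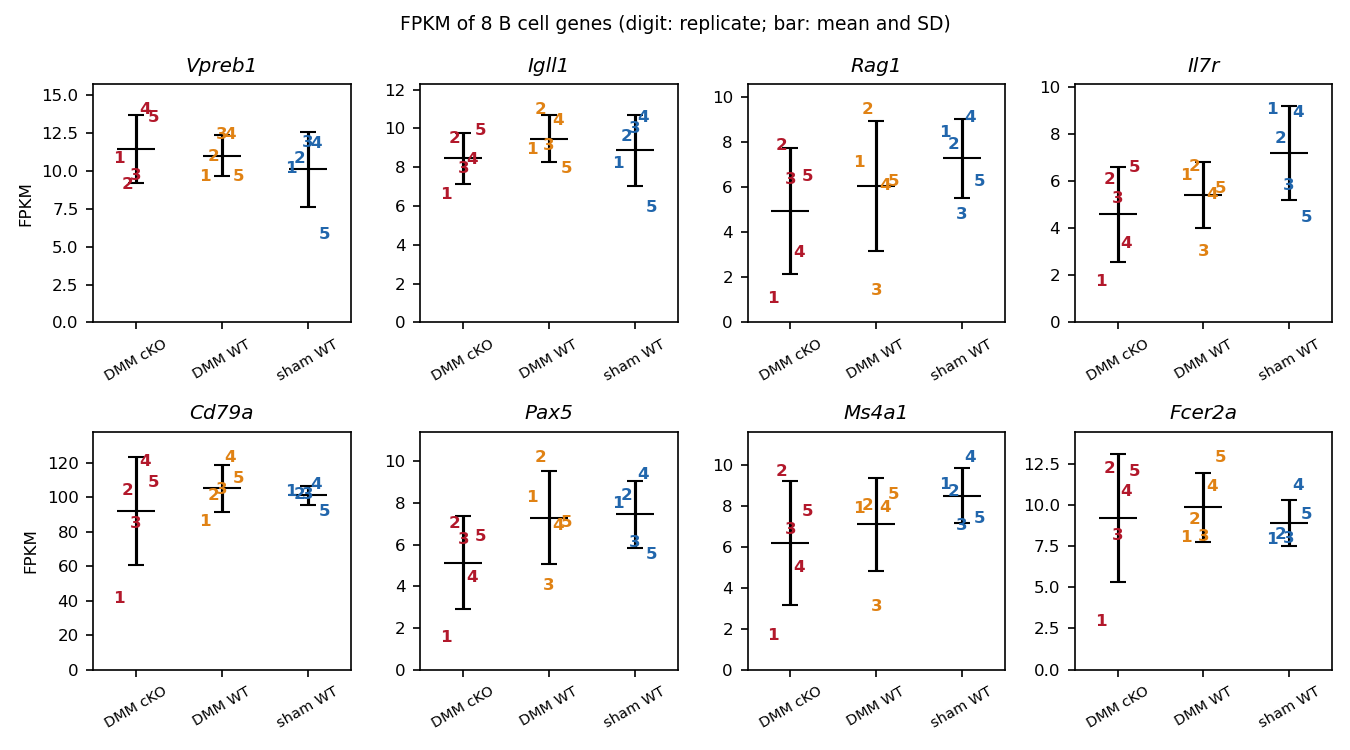
FPKM of 8 B cell genes from pro-B to mature stages in DMM cKO (red), DMM WT (orange) and sham WT (blue) bones; digits are replicates and bars are mean and SD, n = 5. Vpreb1 spans 5.81 to 14.02 FPKM with no group apart, while Rag1, Il7r, Pax5 and Ms4a1 are lowest in DMM cKO replicate 1 and next lowest in DMM WT replicate 3.

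Lineage-wide genes held both the highest and some of the lowest levels, with no member past the threshold. Cd24a, a surface glycoprotein that erythroid and neutrophil precursors also make, was the highest of the 32 at 436 to 797 FPKM. Cd79a, the Ig-alpha signalling chain of the B cell receptor, was 41.0, 104, 84.9, 121 and 109 FPKM in DMM cKO bones, 86.1, 101, 104, 123 and 111 FPKM in DMM WT bones and 103, 102, 102, 107 and 91.8 FPKM in sham WT bones. Apart from DMM cKO replicate 1, every library was between 84.9 and 123 FPKM. Cd79b, the Ig-beta chain, was 36.5, 87.6, 72.7, 93.4 and 85.0 FPKM in DMM cKO bones, 74.5, 88.7, 76.9, 98.5 and 94.9 FPKM in DMM WT bones and 84.2, 86.4, 84.4, 101 and 76.8 FPKM in sham WT bones. DMM cKO replicate 1 was again far the lowest, and the ratio of Cd79a to Cd79b was 1.06 to 1.36 in every library.

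The transcription factors that found the lineage were lower in level and wider in range. Ebf1, which opens the B cell programme, was 1.28, 4.17, 3.79, 2.92 and 4.19 FPKM in DMM cKO bones, 4.55, 4.79, 2.57, 4.26 and 3.94 FPKM in DMM WT bones and 4.05, 4.23, 3.06, 4.27 and 3.49 FPKM in sham WT bones. Pax5, which commits cells to it, was 1.55, 7.04, 6.27, 4.44 and 6.40 FPKM in DMM cKO bones, 8.27, 10.2, 4.06, 6.90 and 7.08 FPKM in DMM WT bones and 7.96, 8.37, 6.11, 9.39 and 5.51 FPKM in sham WT bones. Both were lowest in DMM cKO replicate 1, then in DMM WT replicate 3 or DMM cKO replicate 4, and the other 12 libraries of the 3 groups overlapped. Spib, an Ets factor of B cells and plasmacytoid dendritic cells, was 16.8, 47.2, 42.0, 36.1 and 45.1 FPKM in DMM cKO bones, 49.0, 54.9, 34.5, 59.7 and 52.7 FPKM in DMM WT bones and 47.2, 46.8, 42.4, 57.9 and 38.6 FPKM in sham WT bones. All 5 DMM cKO bones were below the DMM WT mean of 50.2 FPKM, although 4 of them lay inside the DMM WT range.

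Ikzf3, which encodes Aiolos, was 0.702, 3.32, 2.88, 1.502 and 3.02 FPKM in DMM cKO bones, 3.91, 4.35, 1.09, 3.02 and 3.08 FPKM in DMM WT bones and 4.38, 4.39, 2.61, 4.72 and 2.98 FPKM in sham WT bones. DMM cKO replicates 1 and 4 and DMM WT replicate 3 were the low bones. Bach2, a repressor that holds off the plasma cell state, has the longest transcript of the set, 8882 bases, and averaged 1.62 ± 1.45 FPKM in DMM cKO, 3.10 ± 1.94 FPKM in DMM WT and 3.92 ± 1.63 FPKM in sham WT bones. It was 0.0685, 0.125 and 0.0896 FPKM in DMM cKO replicates 1 and 4 and DMM WT replicate 3, and at least 1 FPKM in the other 12 libraries. Pou2af1, a coactivator at octamer sites, averaged 27.6 ± 10.9 FPKM in DMM cKO, 32.8 ± 7.50 FPKM in DMM WT and 37.9 ± 7.77 FPKM in sham WT bones.

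Among the signalling genes, Blnk, the adaptor below the pre-B and B cell receptors, was 3.53, 6.76, 5.84, 6.90 and 7.02 FPKM in DMM cKO bones, 6.29, 8.21, 6.47, 7.92 and 7.48 FPKM in DMM WT bones and 7.30, 7.42, 6.96, 7.74 and 5.94 FPKM in sham WT bones. All 5 DMM cKO bones lay below both the DMM WT mean and the sham WT mean, within overlapping ranges. Btk, a kinase that myeloid cells share, was the exception of the class and averaged 25.6 ± 5.18 FPKM in DMM cKO, 21.5 ± 1.93 FPKM in DMM WT and 21.6 ± 2.10 FPKM in sham WT bones. It was highest in DMM cKO replicate 1, at 32.7 FPKM. Blk, a Src family kinase, spanned 4.02 to 14.4 FPKM, Cd72, an inhibitory co-receptor, 8.31 to 20.9 FPKM, and Fcrla, an intracellular Fc receptor-like protein, 5.66 to 18.9 FPKM, each with its lowest value in DMM cKO replicate 1. Reads of Cd72 may be shared with Tesk1, whose transcript overlaps 55.2% of it on the opposite strand and averaged 3.66 FPKM; the strand setting of the counting was not given in the sources used here.

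Mature B cell genes were read in every library too. Ms4a1, which encodes CD20, was 1.66, 9.65, 6.81, 4.97 and 7.70 FPKM in DMM cKO bones, 7.87, 8.01, 3.08, 7.89 and 8.56 FPKM in DMM WT bones and 9.03, 8.68, 7.02, 10.4 and 7.35 FPKM in sham WT bones. DMM cKO replicate 1 and DMM WT replicate 3 were the lowest bones. Fcer2a, the low-affinity IgE receptor CD23, was 2.89, 12.2, 8.11, 10.8 and 12.0 FPKM in DMM cKO bones, 8.01, 9.09, 8.07, 11.1 and 12.9 FPKM in DMM WT bones and 7.89, 8.20, 7.94, 11.2 and 9.39 FPKM in sham WT bones. Outside DMM cKO replicate 1 it stayed between 7.89 and 12.9 FPKM. DMM WT replicate 3, at 8.07 FPKM, was just above the lowest of its group, 8.01 FPKM in replicate 1. Cr2, the complement receptor CD21, was the lowest of the 32 at 0.212, 1.34, 0.916, 1.72 and 1.42 FPKM in DMM cKO bones, 1.05, 0.972, 0.728, 1.01 and 1.19 FPKM in DMM WT bones and 0.921, 0.984, 0.840, 1.14 and 1.16 FPKM in sham WT bones; it reached 1 FPKM in 8 of 15 libraries, with both its lowest and its highest value in DMM cKO bones.

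The remaining receptors of mature cells followed the same libraries. Cxcr5, the receptor for Cxcl13, was 1.27, 4.83, 3.37, 3.25 and 4.67 FPKM in DMM cKO bones, 3.12, 3.02, 2.21, 4.18 and 4.29 FPKM in DMM WT bones and 4.61, 4.20, 3.85, 5.24 and 4.32 FPKM in sham WT bones. All 5 DMM WT bones were below the sham WT mean of 4.44 FPKM, and 3 of them below every sham WT bone. Cd22, an inhibitory lectin that binds sialic acid, was 3.22, 8.995, 9.42, 7.08 and 7.96 FPKM in DMM cKO bones, 9.28, 9.83, 6.92, 10.4 and 9.28 FPKM in DMM WT bones and 12.7, 8.64, 9.12, 10.6 and 8.14 FPKM in sham WT bones. Siglecg, a lectin of the same family, was 8.23, 16.1, 13.7, 10.8 and 13.5 FPKM in DMM cKO bones, 15.4, 18.7, 10.3, 17.5 and 17.0 FPKM in DMM WT bones and 16.4, 16.9, 15.4, 19.0 and 14.8 FPKM in sham WT bones. Of the DMM cKO bones, 4 were below every sham WT bone for Siglecg, and replicate 2 was inside the sham WT range.

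Tnfrsf13c, the receptor for BAFF, averaged 8.02 ± 3.12 FPKM in DMM cKO, 9.08 ± 1.60 FPKM in DMM WT and 9.94 ± 1.27 FPKM in sham WT bones. Bank1, a scaffold of B cell receptor signalling, spanned 1.05 to 2.63 FPKM, Fcrl1, an Fc receptor-like protein, 1.91 to 5.13 FPKM, and Ralgps2, an exchange factor for Ral, 1.501 to 3.79 FPKM. All 4 were lowest in DMM cKO replicate 1. Cd37, a tetraspanin of many leukocytes, differed from them at 36.4 to 57.5 FPKM and was 52.4 FPKM in that library, inside the range of its group.

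Pro-B and pre-B genes and mature genes were lowest in the same library, and the difference between the classes was alike in the 3 groups within its spread. The mean log2(FPKM + 1) of the 7 pro-B and pre-B genes was 3.12 ± 0.36 in DMM cKO, 3.27 ± 0.21 in DMM WT and 3.33 ± 0.24 in sham WT bones. That of the 11 mature genes was 2.73 ± 0.44 in DMM cKO, 2.90 ± 0.20 in DMM WT and 2.97 ± 0.12 in sham WT bones, and that of the 14 lineage-wide genes 4.12 ± 0.48, 4.41 ± 0.28 and 4.48 ± 0.19 in the same groups. In DMM cKO replicate 1 the pro-B and pre-B mean was 2.51 and the mature mean 1.98. The groups overlapped for every class.

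The pro-B and pre-B mean minus the mature mean was 0.53, 0.22, 0.39, 0.35 and 0.44 in DMM cKO bones, 0.41, 0.55, 0.36, 0.35 and 0.15 in DMM WT bones and 0.37, 0.50, 0.41, 0.44 and 0.088 in sham WT bones. Group means of this log2 difference were 0.39 ± 0.11 in DMM cKO, 0.37 ± 0.14 in DMM WT and 0.36 ± 0.16 in sham WT bones. The groups thus differed by 0.021 (DMM cKO minus DMM WT), 0.028 (DMM cKO minus sham WT) and 0.0074 (DMM WT minus sham WT), each under the SD of any group; no test was run on these means. Without the 3 libraries that read long transcripts lower they were -0.016, -0.0079 and 0.0082 in the same order. The lowest value of all, 0.088 in sham WT replicate 5, went with low Vpreb1, Igll1 and Dntt there. Il7r and Cd37 are also carried by other leukocytes. Without them the group means were 0.80 ± 0.18 in DMM cKO, 0.74 ± 0.15 in DMM WT and 0.67 ± 0.16 in sham WT bones, with overlapping ranges. Restricting both classes to transcripts under 3000 bases, a choice made after seeing the data, gave 0.95, 0.22, 0.47, 0.68 and 0.54 in DMM cKO bones, 0.56, 0.61, 0.84, 0.49 and 0.16 in DMM WT bones and 0.31, 0.49, 0.55, 0.38 and 0.033 in sham WT bones. On that choice the groups still overlapped, and the 3 highest values were in the 3 libraries that read long transcripts lower. The short-gene difference was then 0.039 for DMM cKO minus DMM WT, 0.22 for DMM cKO minus sham WT and 0.18 for DMM WT minus sham WT. Without those 3 libraries it was -0.047, 0.058 and 0.10 in the same order.

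**Figure D3:**
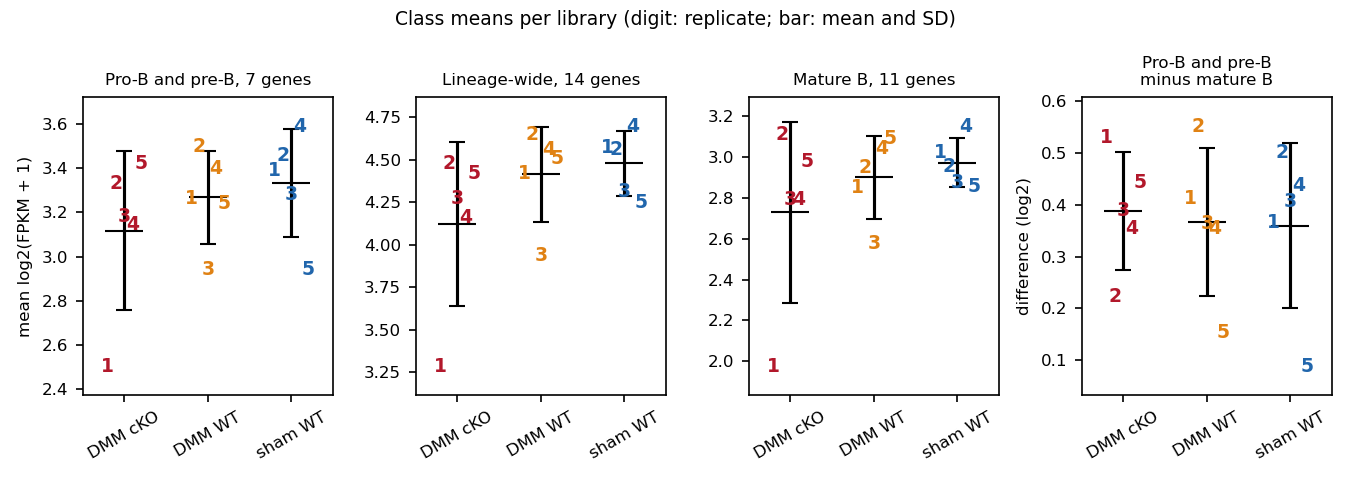
Mean log2(FPKM + 1) per library of the 7 pro-B and pre-B genes, the 14 lineage-wide genes and the 11 mature genes, and the pro-B and pre-B mean minus the mature mean, in DMM cKO (red), DMM WT (orange) and sham WT (blue) bones; digits are replicates and bars are mean and SD, n = 5. DMM cKO replicate 1 is lowest in each class, and the difference between classes overlaps fully between groups.

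DMM cKO replicate 1 was low across all stages, and less so for the short pro-B and pre-B genes than for the short mature genes. Short pro-B and pre-B genes (under 3000 bases) had a mean log2 level of 3.55, against 3.81 to 4.11 in the other DMM cKO bones. Short mature genes were at 2.60, against 3.34 to 3.69. Without Il7r and Cd37 the pro-B and pre-B mean minus the mature mean was 1.08, against 0.57 to 0.81 in those bones. Relative to the mean of the other 4 DMM cKO bones, the median ratio was 0.50 over pro-B and pre-B genes, 0.39 over lineage-wide genes and 0.39 over mature genes, and the 3 genes not below all 4 others were Btk, Vpreb1 and Cd37. In that library 9 neutrophil genes summed to 49404 FPKM, against 18980 to 29209 FPKM in the other DMM cKO bones, and 8 erythroid genes to 634 FPKM, against 1344 to 1709 FPKM. Elane, a protease of neutrophil precursors, was 1508 FPKM there and 505 to 705 FPKM in the other 4. The part of these cells in the low B cell values was not tested. FPKM are shares of a library, and in bulk bone fewer B cells and less RNA per cell cannot be told apart.

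Long and short members also differed within single libraries. Of the 32 members, 12 have a longest coding transcript of at least 3000 bases and 20 a shorter one. In DMM WT replicate 3, all 12 long members were below the other 4 DMM WT bones, with a median ratio of 0.52, against 8 of 20 short members with a median ratio of 0.86. Within the pro-B and pre-B class of that library the 3 long genes (Rag1, Rag2 and Il7r) had a mean log2 level of 1.47, where the other DMM WT bones had 2.38 to 2.74. The 4 short genes were at 4.04 in it, inside the 3.87 to 4.16 of the others. In DMM cKO replicate 4 the median ratio was 0.83 over long members and 1.09 over short members. In DMM cKO replicate 1 both were low, at 0.30 over long and 0.46 over short members. In sham WT replicate 3, whose slope over other genes was -0.03, 7 of 12 long members were below the other sham WT bones, with a median ratio of 0.78, against 3 of 20 short members with a median ratio of 0.98. Sham WT replicate 5 differed from these: 16 of 20 short members and 5 of 12 long members were below the other sham WT bones.

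**Figure D4:**
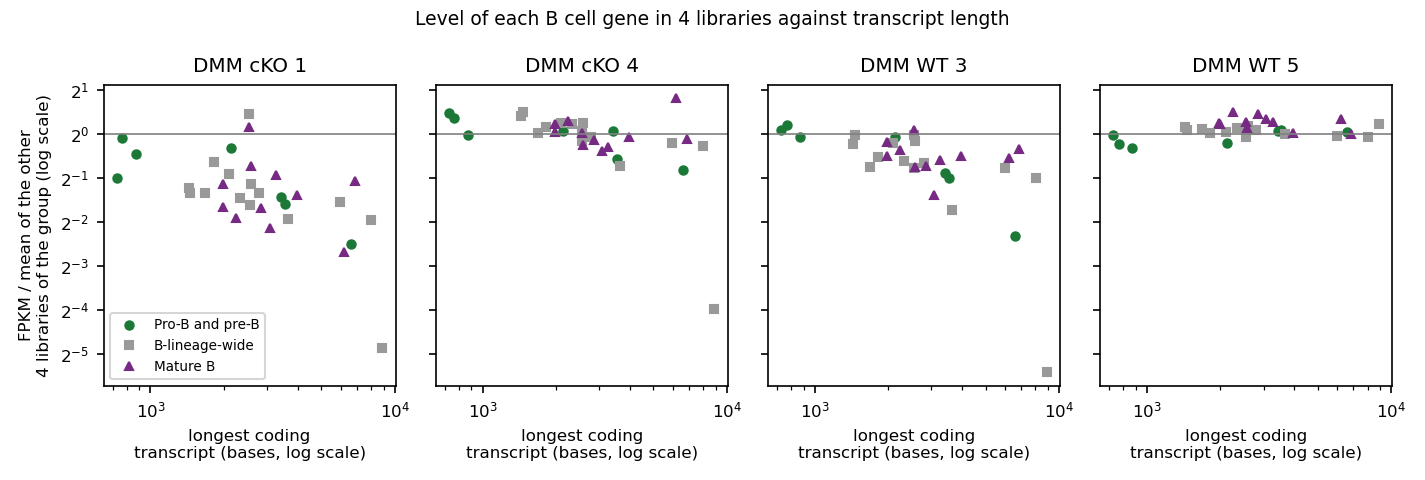
FPKM of each B cell gene divided by the mean of the other 4 libraries of its group (log scale) against the bases of its longest coding transcript (log scale) in DMM cKO replicate 1, DMM cKO replicate 4, DMM WT replicate 3 and, for contrast, DMM WT replicate 5; circles are pro-B and pre-B, squares lineage-wide and triangles mature genes. The long genes lie lowest in DMM cKO replicate 1 and DMM WT replicate 3, and Bach2 at 8882 bases is the lowest point in the first 3 panels.

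After DMM, most B cell genes had a lower mean level in knockout than in wild-type bone, and no member passed the test. In DMM cKO minus DMM WT, 28 of the 32 members had a negative and 4 a positive log2 difference, with a median of -0.25, beside -0.017 over all 13653 genes tested, of which 54.9% were negative. By stage the median was -0.15 over pro-B and pre-B genes, -0.30 over lineage-wide genes and -0.22 over mature genes. None of the 32 passed limma's adjusted p of 0.05, a rule that called 1 gene in all, or 0.00732% of those tested. At an unadjusted p under 0.05, 0 members were higher and 0 lower, where 1.11% of all genes were higher and 2.15% lower. The groups did not overlap for 0.381% of genes, and for none of the members.

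The 3 members with the smallest p in that comparison were Spib, Siglecg and Blnk. Their log2 differences were -0.47 (SE 0.24; 95% interval -0.98 to 0.033) for Spib, with 5 of 5 DMM cKO bones below the DMM WT mean, -0.32 (SE 0.17; 95% interval -0.68 to 0.037) for Siglecg, with 4 of 5, and -0.26 (SE 0.14; 95% interval -0.56 to 0.035) for Blnk, with 5 of 5; limma's adjusted p was 0.935 for each. Pax5 differed by -0.50 (SE 0.29; 95% interval -1.11 to 0.11). Vpreb1 differed by 0.041 (SE 0.17; 95% interval -0.32 to 0.40), Rag1 by -0.27 (SE 0.41; 95% interval -1.15 to 0.60) and Ms4a1 by -0.25 (SE 0.32; 95% interval -0.94 to 0.43). Without DMM cKO replicate 1 the differences were -0.21 for Spib, -0.19 for Siglecg and -0.11 for Blnk, and without the 3 libraries with a length slope -0.27, -0.23 and -0.17. Pax5 fell to -0.21 without DMM cKO replicate 1, and Rag1 and Ms4a1 turned to 0.066 and 0.068. Without the 3 libraries with a length slope these 3 genes were at -0.26, -0.046 and -0.016. Leaving out 1 library at a time put the median over the members between -0.34, without DMM cKO replicate 2, and -0.041, without DMM cKO replicate 1. It was -0.31 without DMM cKO replicate 5 and -0.30 without DMM WT replicate 3. Without DMM cKO replicate 1 the median of -0.041 came with 21 negative and 11 positive differences, and the class medians were -0.019, -0.076 and 0.035 for pro-B and pre-B, lineage-wide and mature genes. The median over the members was -0.073 without the 3 libraries that read long transcripts lower.

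Set against sham-operated wild-type bone, the knockout DMM bones gave similar differences, and the operation and the genotype cannot be told apart there. In DMM cKO minus sham WT, 28 members were negative and 4 positive, with a median of -0.24 beside -0.010 over all genes. The class medians were -0.081 for pro-B and pre-B, -0.30 for lineage-wide and -0.23 for mature genes. By limma's adjusted p, 0 members were called, where 4 genes, or 0.0293%, were called in all. At an unadjusted p under 0.05, 4 members (Siglecg, Il7r, Ikzf3 and Bach2) were lower and 0 higher, beside 4.64% and 5.84% of all genes. Groups did not overlap for 2.26% of genes and 0 members.

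Siglecg differed by -0.40 (SE 0.17; 95% interval -0.76 to -0.047), Il7r by -0.61 (SE 0.27; 95% interval -1.18 to -0.028) and Ikzf3 by -0.61 (SE 0.28; 95% interval -1.21 to -0.0087), with all 5 DMM cKO bones below the sham WT mean for each and an adjusted p of 0.469 from limma. Bach2 differed by -1.06 (SE 0.49; 95% interval -2.11 to -0.0093), also with 5 of 5. Among the 3 long genes of the pro-B and pre-B class Rag1 differed by -0.62 and Rag2 by -0.25, and among the 4 short ones Vpreb1 by 0.18, Igll1 by -0.048, Vpreb3 by -0.075 and Dntt by -0.081. Without the 3 libraries with a length slope the differences were -0.18 for Siglecg, -0.20 for Il7r, -0.22 for Ikzf3 and -0.38 for Bach2. Rag1 was then at -0.048. The count of 4 members at an unadjusted p under 0.05 was 1 with the replicate number as a block, 2 with a pseudocount of 0.1 and 0 with an erythroid or a length slope covariate. It was 6 with a neutrophil covariate and 2 with neutrophil and length slope covariates together. It stayed at 4 with median-of-ratios scaling, robust moderation or a fast muscle covariate. The share of all genes at that level was not worked out under these settings. The median over the members was -0.078 without DMM cKO replicate 1 and -0.046 without the 3 libraries with a length slope, and no member then had an unadjusted p under 0.05.

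After the operation alone, in wild-type bone, the members were spread on both sides of their sham level. In DMM WT minus sham WT, 18 members were negative and 14 positive, with a median of -0.0089 beside 0.0019 over all genes. The class medians were 0.029 for pro-B and pre-B, -0.0017 for lineage-wide and -0.084 for mature genes. By limma's adjusted p, 0 members and 0 genes in all (0%) were called. At an unadjusted p under 0.05, 0 members were called in either direction, beside 5.5% of all genes higher and 1.43% lower. Groups did not overlap for 1.79% of genes and 0 members.

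The smallest p values of that comparison were those of Cxcr5, Il7r and Ikzf3. Cxcr5 differed by -0.34 (SE 0.22; 95% interval -0.80 to 0.13) and Il7r by -0.35 (SE 0.27; 95% interval -0.93 to 0.22), each with 5 of 5 DMM WT bones below the sham WT mean, and Ikzf3 by -0.28 (SE 0.28; 95% interval -0.88 to 0.32), with 3 of 5; limma's adjusted p was 0.917 for each. Cd79a differed by 0.048 (SE 0.22; 95% interval -0.43 to 0.52), Igll1 by 0.10 (SE 0.14; 95% interval -0.20 to 0.40) and Fcer2a by 0.12 (SE 0.27; 95% interval -0.47 to 0.70). Without the 3 libraries with a length slope the differences were -0.23 for Cxcr5, -0.20 for Il7r and -0.057 for Ikzf3. Leaving out DMM WT replicate 3 turned the median over the members to 0.044, with 12 negative and 20 positive differences. The comparisons share groups, so their values are not independent of each other.

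**Figure D5:**
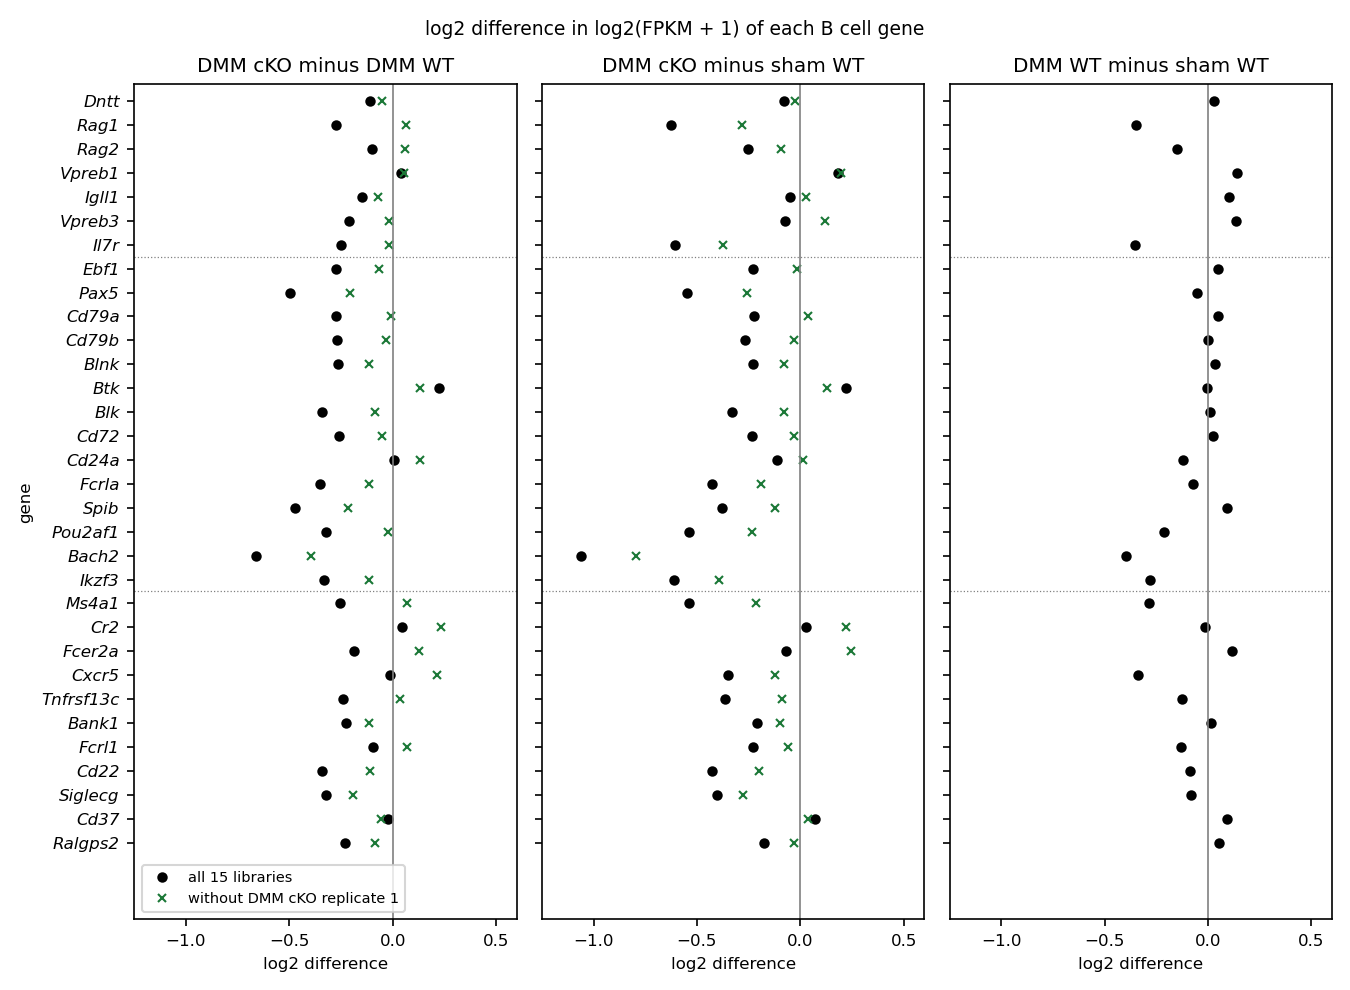
log2 difference in log2(FPKM + 1) of each of the 32 B cell genes for DMM cKO minus DMM WT, DMM cKO minus sham WT and DMM WT minus sham WT; dots are all 15 libraries and crosses leave out DMM cKO replicate 1. Of the 28 dots left of 0 in each of the first 2 panels, 26 have a cross nearer to 0, and Bach2 is the lowest cross in both.

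Other genes of the B cell programme, 22 in number with 21 tested, gave the same counts of 0 past the threshold in all 3 comparisons. In DMM cKO minus DMM WT 16 were negative and 5 positive, with a median of -0.11, and Pou2f2, which encodes the B cell factor Oct-2, differed by -0.35 (SE 0.16; 95% interval -0.69 to -0.0016). In DMM cKO minus sham WT 17 were negative and 4 positive, with a median of -0.21. Irf4, a factor needed at the pre-B and plasma cell stages, differed by -0.73 (SE 0.29; 95% interval -1.35 to -0.11) there, and Syk, the kinase below Cd79a and Cd79b, by -0.30 (SE 0.12; 95% interval -0.55 to -0.050). In DMM WT minus sham WT 16 were negative and 5 positive, with a median of -0.097. Without the 3 libraries with a length slope the medians over these genes were -0.066 in DMM cKO minus DMM WT, -0.028 in DMM cKO minus sham WT and -0.011 in DMM WT minus sham WT. The differences were then -0.30 for Pou2f2 in DMM cKO minus DMM WT, and -0.37 for Irf4 and -0.16 for Syk in DMM cKO minus sham WT.

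Of 7 ligands of B cell receptors and progenitors, 5 were high enough to test and none passed. Il7, the ligand of Il7r, was 0.157 to 0.592 FPKM and Cxcl13, the ligand of Cxcr5, 0.0909 to 1.10 FPKM, both under the limit for testing. Tnfsf13b, which encodes BAFF, was 1.97 to 3.61 FPKM and differed by 0.019 in DMM cKO minus DMM WT, 0.042 in DMM cKO minus sham WT and 0.023 in DMM WT minus sham WT. Flt3l, a growth factor for early progenitors, had the smallest p of the 5 ligands tested, with a difference of -0.14 (SE 0.077; 95% interval -0.31 to 0.025) in DMM cKO minus DMM WT.

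Markers of other cells moved beside these values without passing the test. The 9 neutrophil genes were all positive in DMM cKO minus DMM WT, with a median of 0.16, and summed to 18980 to 49404 FPKM in DMM cKO, 14697 to 35402 FPKM in DMM WT and 21767 to 29230 FPKM in sham WT bones. Without DMM cKO replicate 1, 8 of the 9 were negative in that comparison, with a median of -0.056. With the neutrophil level as a covariate, added after seeing the data, the median over the B cell members in DMM cKO minus DMM WT was -0.15, and with the length slope as well -0.12. The 8 erythroid genes summed to 634 to 1709 FPKM in DMM cKO, 762.5 to 1948 FPKM in DMM WT and 1356 to 2052 FPKM in sham WT bones; with their level as a covariate the median was -0.17 in DMM cKO minus DMM WT and -0.079 in DMM cKO minus sham WT. T and NK cell genes summed to 67.6 to 146 FPKM in DMM cKO, 58.1 to 109.8 FPKM in DMM WT and 68.1 to 90.1 FPKM in sham WT bones. The T cell gene Cd3e was under 1 FPKM in every library, and the other 9 of the 10 listed were high enough to test. Macrophage genes summed to 348 to 419 FPKM in DMM cKO, 352 to 405 FPKM in DMM WT and 340.0 to 451 FPKM in sham WT bones. In DMM cKO minus sham WT, where the B cell median was -0.24, 7 of 8 macrophage genes were negative, with a median of -0.19, and 3 had an unadjusted p under 0.05. These were Cd163, a scavenger receptor, at -0.73 (SE 0.26; 95% interval -1.28 to -0.18), Adgre1, which encodes F4/80, at -0.35 (SE 0.14; 95% interval -0.64 to -0.049), and Mrc1, the mannose receptor, at -0.34 (SE 0.14; 95% interval -0.64 to -0.028); limma's adjusted p was 0.469 for each. For 1 of the 8 the groups did not overlap, beside 2.26% of all genes. At an unadjusted p under 0.05, 4.64% of all genes were lower in DMM cKO minus sham WT. In DMM WT minus sham WT 7 of 8 were also negative, with a median of -0.14, where the B cell median was -0.0089. In DMM cKO minus DMM WT 5 of 8 were negative, with a median of -0.049, where the B cell median was -0.25. In DMM cKO minus sham WT the macrophage median was -0.15 without DMM cKO replicate 1 and -0.14 without the 3 length-slope libraries. The B cell median was then -0.078 and -0.046. All 8 erythroid genes were negative in the same comparison, with a median of -0.29, and 7 of 8 with a median of -0.061 without DMM cKO replicate 1. Proliferation genes differed by a median of 0.043 in DMM cKO minus DMM WT, and fast muscle genes by 0.74. The fast muscle genes summed to 383 to 2269 FPKM in DMM cKO and 203 to 1969 FPKM in DMM WT bones. Their median was 1.46 without the 3 libraries with a length slope, and none passed the test with all libraries. All 10 bone genes were negative in DMM cKO minus DMM WT, with a median of -0.41, and of -0.20 without the 3 libraries with a length slope. In DMM cKO minus sham WT 5 of the 10 were negative, with a median of 0.0056. In DMM WT minus sham WT 2 of the 10 were negative, with a median of 0.37. The fast muscle median was -0.047 in DMM cKO minus sham WT and -0.79 in DMM WT minus sham WT. The part of these differences in the B cell values was not tested beyond the covariates named.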

How the data were processed

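Per the labels, RNA came from ground frozen tibial subchondral bone, and poly(A) libraries were made with dUTP, which keeps strand; the libraries are called biological replicates. The submitters' processing notes name STAR 2.7.10a and featureCounts 2.0.3, with FastQC 0.11.9 and Trimmomatic 0.39, and build GRCm39. The authors deposited a single table of FPKM values; the tool behind the FPKM was not given in the sources used here. Of low genes, 11.05% came out as whole multiples of their own smallest value, within 0.01 of that value. Read counts were thus not recovered, no count test was run and absolute depth is unknown. All 15 columns matched samples by name, 0 were left over, and 0 of 105 pairs of libraries were identical. Symbols were found for 55154 IDs and not for 181.

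Tests used limma 3.58.1 (R 4.3.3) with an intensity trend on log2(FPKM + 1). The scale understates changes of low genes. The 13653 genes tested reached 1 FPKM in 5 or more libraries. All 32 members passed that filter, which does not depend on the groups. One fit gave 3 comparisons, with Benjamini-Hochberg adjustment over all genes and a threshold of 0.05. Class levels are means of log2(FPKM + 1), without a test. The length slope was fitted per library over 11811 tested genes outside the set, with GENCODE M21 transcripts. Similar transcripts were sought with BLAST 2.17.0, promoters are RefSeq GRCm38.p6, and figures were drawn with matplotlib 3.10.9.

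The members and lists were chosen with earlier results of these data known. All members are named; values per library are given for 14 genes set for their stage and the 3 members with the smallest p in each comparison. Of other lists, up to 3 genes with the smallest p are named. Elane and the values of Bach2 by library were picked after their values were seen, as were the genes called in the whole table. Those were AC117239.2 for DMM cKO against DMM WT and, for DMM cKO against sham WT, AC117239.2, Osm, Gm26917 and Gm45222.

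Alternatives were median-of-ratios scaling, a pseudocount of 0.1, a 5 FPKM filter or none, a replicate block, only the 10 libraries compared, robust moderation, muscle or erythroid covariates, each library left out, a threshold of 0.1, and classes without Il7r and Cd37. Added after seeing the data were leaving out the 3 libraries with a length slope under -0.1, covariates for length slope, for neutrophil genes and for both, and classes of transcripts under 3000 bases, also without those libraries.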

Additional observations from a re-analysis of the deposited data

Results flagged for a closer look

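A gap test at the 95% level (0.71 of the group's range) was run on 108 sets of 5 values. The scale was log2(FPKM + 1) or its mean over a class. Single bones lay far below the other 4 of their group in 16 of the sets, where chance alone gives about 1 in 20. Of these, 11 were DMM cKO replicate 1, 4 were DMM WT replicate 3 and 1 was sham WT replicate 5, and the genes share libraries, so the sets are not independent. In DMM cKO replicate 1 the low values in FPKM were Rag2 at 0.770, Cd79b at 36.5, Blnk at 3.53, Blk at 4.02, Cd72 at 8.31, Fcrla at 5.66, Spib at 16.8, Tnfrsf13c at 2.94 and Cd22 at 3.22. The mean log2 level was also low there, 3.29 over lineage-wide genes and 1.98 over mature genes. In DMM WT replicate 3 they were Rag1 at 1.43, Il7r at 3.03, Cd24a at 460.0 and Ms4a1 at 3.08 FPKM. In sham WT replicate 5 it was Vpreb1 at 5.81 FPKM.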

How the results depend on the processing

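No member passed the threshold in any comparison under any alternative run; the lowest adjusted p of a member from limma was 0.258, in DMM cKO minus sham WT without DMM WT replicate 3, where the lowest with all libraries was 0.469. Restricting both classes to transcripts under 3000 bases moved the difference between pro-B and pre-B genes and mature genes to 0.18 for DMM WT minus sham WT and 0.22 for DMM cKO minus sham WT, and without the 3 libraries with a length slope to 0.10 and 0.058. Leaving out 1 library gave -0.060 to 0.061 for DMM WT minus sham WT, -0.033 to 0.067 for DMM cKO minus DMM WT and -0.040 to 0.070 for DMM cKO minus sham WT. The lineage-wide median in DMM cKO minus DMM WT ran from -0.42 without DMM WT replicate 3 to -0.076 without DMM cKO replicate 1, and the mature one from -0.32 without DMM cKO replicate 2 to 0.035 without DMM cKO replicate 1. The count of members with an unadjusted p under 0.05 in DMM cKO minus sham WT, 4 with all libraries, was 0 without DMM cKO replicate 1 or 4, 1 without sham WT replicate 1, 2 or 4, 2 without DMM WT replicate 1, 4 or 5, and 11, 6 and 7 without DMM cKO replicates 2, 3 and 5. In DMM cKO minus DMM WT it was 7 without DMM WT replicate 3. With all libraries 4.64% of all genes were lower and 5.84% higher at that level in DMM cKO minus sham WT. The share was not worked out for the alternatives, so these counts have no background beside them. Bones with the same replicate number deviated together in some pairs and apart in others, with correlations of -0.46 to 0.40. The numbers were therefore not taken as a pairing. With the number as a block, 0 members were called. In DMM cKO minus sham WT the count at an unadjusted p under 0.05 was then 1, against 4. Calls among all genes in DMM cKO minus sham WT were 1, against 4. Every group holds each replicate number, so the block cannot move a difference of group means, and the unchanged medians are no check. With a fast muscle covariate 1.85% of all genes were called for DMM WT minus sham WT, against 0%, and 0 members. Under the other alternatives the calls among all genes were 0 to 5 there, 1 to 2 for DMM cKO minus DMM WT (1 with all libraries) and 1 to 11 for DMM cKO minus sham WT, the most with the neutrophil covariate. Scaling moved the median of all genes by under 0.1. Lacking counts, the depth behind Cr2, Rag2 and Bank1, the lowest members, is unknown.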

Other observations

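Some genes of plasma cells, the last stage of the B lineage, differed between sham bones. Jchain, which joins IgA and IgM into polymers, was 26.4, 53.2, 45.2, 67.3 and 24.9 FPKM in DMM cKO bones, 48.9, 25.1, 65.0, 26.4 and 31.6 FPKM in DMM WT bones and 196, 201, 48.5, 52.5 and 25.9 FPKM in sham WT bones. Sham WT replicates 1 and 2 were thus about 3 times the highest other library, DMM cKO replicate 4 at 67.3 FPKM. Mzb1, a chaperone of antibody-secreting cells listed here with other B cell genes, was 16.9 and 20.0 FPKM in those 2 bones and 6.61 to 13.8 FPKM in the other 13. Derl3, an endoplasmic reticulum protein of secretory cells, was 2.18 and 2.78 FPKM in them and at most 0.931 FPKM elsewhere. Both bones were inside the sham WT range for Cd79a, Ms4a1 and Pax5. The log2 difference of Jchain was -0.91 (SE 0.52; 95% interval -2.01 to 0.20) in DMM cKO minus sham WT and -1.04 (SE 0.52; 95% interval -2.15 to 0.064) in DMM WT minus sham WT, with limma's adjusted p at 0.473 and 0.776. Sdc1, the surface proteoglycan CD138 and the gene of the plasma cell list with the smallest p in DMM WT minus sham WT, went the other way, with 0.26 (SE 0.13; 95% interval -0.024 to 0.54) in DMM cKO minus sham WT and 0.46 (SE 0.13; 95% interval 0.18 to 0.75) in DMM WT minus sham WT; limma's adjusted p was 0.469 and 0.283. It was not high in sham WT replicates 1 and 2 alone, at 10.7 and 8.37 FPKM, against 6.17 to 12.7 FPKM in the other 13. Xbp1, which drives the secretory programme, differed by -0.34 and -0.35 in the same comparisons, and Prdm1, which encodes Blimp-1, by -0.23 and -0.045. Jchain, Mzb1 and Derl3 were picked after their values were seen.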
